A study of Rattus norvegicus with 9 samples.

Results

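The genes described here are 8 that mark the duct cells of the pancreas or build and accompany their keratin cytoskeleton: Krt7, Krt8, Krt18, Krt19, Epcam, Sox9, Spp1 and Cftr. They were found by gene symbol in the platform annotation of an Affymetrix rat whole-genome array. Of the 8, 7 had a probe set with their symbol alone, 1 probe set each, and Sox9 was not analysed here. These 7 are among 14217 genes named on the array, and all 7 were bright enough to be tested. RNA was taken from islets isolated from male Zucker Diabetic Fatty (fa/fa) rats, which carry a defective leptin receptor and become obese and diabetic, so the controls shared this defect. All animals ate the Purina 5008 diet. The treated group ate rosiglitazone, a drug that activates PPAR gamma, a nuclear receptor, mixed into its food (3 mg per kg of body weight) from week 5 and was sampled at 9 weeks of age. The withdrawal group received the same from week 5 to week 9 and was sampled at 11 weeks, 2 weeks after the drug was stopped. Untreated rats received no drug and gave islets at 13 weeks. There were 3 arrays per group, labelled as biological replicates, 24 animals were randomised in the study, and the labels do not say how many animals gave RNA to an array. Every group had an age of its own, so drug and age cannot be told apart in any comparison.

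Pancreatic ducts carry digestive juice from the acinar cells and add a bicarbonate-rich fluid to it. Duct cells are simple epithelial cells, and their intermediate filaments pair a type II keratin (Krt7 or Krt8) with a type I keratin (Krt18 or Krt19). Isolated islets usually bring along some exocrine tissue, and some of these genes are not confined to ducts. Epcam, Krt8 and Krt18 are also found in endocrine cells, Krt8 and Krt18 in acinar cells, and Spp1 in macrophages.

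All values are log2 values per probe set as deposited, and a difference of 1 is a doubling of the measured signal on a linear scale. The deposited arrays were not equally spread. The spread of all probe sets, as an SD, was 1.84 to 1.997 on treated, 1.65 to 1.72 on withdrawal and 1.66 to 1.77 on untreated arrays, and it was highest on the first treated array. Bright probe sets therefore read higher on treated arrays as a body. Krt7, Krt8, Krt18, Epcam and Spp1 belong to the brightest decile of the tested probe sets. In that decile treated arrays exceeded untreated ones by a median of 0.53, withdrawal minus untreated arrays had a median of −0.17, and withdrawal minus treated arrays one of −0.72. The decile of Krt19 had medians of 0.38, −0.11 and −0.50, and that of Cftr 0.16, −0.02 and −0.18. Values after quantile normalization, which gives every array the same distribution, are set beside the deposited ones for that reason. Islet tissue was present on all arrays, with a mean of 10.7 to 11.5 over 8 beta cell markers, and acinar tissue too, with a mean of 13.0 to 13.4 over 17 acinar markers.

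Promoter sequences from RefSeq (build GRCr8, 250 bases before to 50 after the gene start given there) were at hand for 5 of the genes, and those of 3 are shown. Krt8 and Krt18 are shown because they encode filament partners, lie near each other on chromosome 7 with 1 annotated long non-coding RNA gene between them, and had alike values. Cftr is shown because its differences as deposited had the opposite sign, which did not hold against Krt8 after quantile normalization. The windows are chr7:135010290-135010589 (minus strand) for Krt8, chr7:135035918-135036217 (plus strand) for Krt18 and chr4:47527379-47527678 (plus strand) for Cftr, each written 5′ to 3′ on its gene's strand. Capitals mark exact matches, on either strand, to a TATA box core (TATAA), a GC box (GGGCGG), an AP-1 site (TGANTCA), a cAMP response element (TGACGTCA) or the PPAR element of the DR1 type.
Krt8: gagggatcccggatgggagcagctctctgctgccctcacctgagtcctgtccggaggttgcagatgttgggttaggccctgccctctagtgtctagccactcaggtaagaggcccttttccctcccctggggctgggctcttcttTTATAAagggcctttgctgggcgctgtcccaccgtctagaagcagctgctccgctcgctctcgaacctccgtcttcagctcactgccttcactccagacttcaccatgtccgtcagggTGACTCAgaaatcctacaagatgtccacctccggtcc
Krt18: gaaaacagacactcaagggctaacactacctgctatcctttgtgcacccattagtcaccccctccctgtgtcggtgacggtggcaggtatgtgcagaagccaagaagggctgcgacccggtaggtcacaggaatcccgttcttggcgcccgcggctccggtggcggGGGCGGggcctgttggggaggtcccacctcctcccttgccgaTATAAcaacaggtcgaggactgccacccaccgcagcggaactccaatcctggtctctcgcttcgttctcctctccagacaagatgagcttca
Cftr: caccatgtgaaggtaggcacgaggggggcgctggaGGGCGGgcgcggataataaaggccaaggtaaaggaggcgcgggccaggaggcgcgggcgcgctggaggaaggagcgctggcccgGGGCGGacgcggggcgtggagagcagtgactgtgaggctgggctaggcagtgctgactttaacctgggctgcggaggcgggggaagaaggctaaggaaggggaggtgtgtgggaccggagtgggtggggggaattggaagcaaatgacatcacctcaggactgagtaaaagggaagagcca

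Both keratin windows held a TATA core. In Krt8 a match on each strand overlapped, while Krt18 held 1 GC box. An AP-1 match lay 13 to 19 bases after the Krt8 gene start given by RefSeq. That start falls on the letters ATG, so the AP-1 match may lie in coding sequence. Whether that start is a transcription start was not tested. The Cftr window held 2 GC boxes and none of the other motifs. Of 33469 promoters of this length, 26.2% held the TATA core, 33.1% the GC box, 7.33% the AP-1 site, 1.83% the cAMP response element and 0.0538% the DR1 element. GC content was 59.0% for Krt8, 60.3% for Krt18 and 65.0% for Cftr, against a median of 51.7% over all these promoters. A match describes these letters only, and no binding was measured.

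Counted over the 7 measured genes, none rose and 1, Cftr, fell on treated against untreated arrays, where 28.1% of the 20695 tested probe sets were called, 20.9% higher and 7.24% lower. After quantile normalization the counts were the same, against 17.2% called, 7.75% higher and 9.44% lower. The median of the 7 differences was 0.50 as deposited and −0.07 after quantile normalization, and over all tested probe sets it was 0.16 and 0.02. From treated to withdrawal arrays 1 rose, Cftr, and 3 fell, Krt7, Krt18 and Epcam, where 43.8% of the tested probe sets were called, 11.2% higher and 32.6% lower. After quantile normalization 1 rose and none fell, against 29.1% called, 14.5% higher and 14.6% lower, and the median of the 7 was 0.02 rather than −0.57. Both comparisons share the treated arrays. Between withdrawal and untreated arrays 0 of the 7 were called by limma, where 0.159% of the tested probe sets were called, 0.00483% higher and 0.155% lower, and after quantile normalization 0.42%, 0.0338% and 0.387%. At an unadjusted p under 0.05, limma also gave 0 of the 7, and 7.5% of the tested probe sets.

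Groups that did not overlap were common on these arrays. Treated and untreated arrays did not overlap for Krt18, which was higher, and Cftr, which was lower, as for 42.9% of tested probe sets, 31.2% higher and 11.7% lower. After quantile normalization that held for Cftr alone, against 35.6% of probe sets, 17.8% in each direction. Withdrawal arrays lay below all treated ones for Krt7, Krt18 and Epcam and above them for Cftr, as for 53.9% of probe sets, 39% below and 14.9% above. After quantile normalization that held for Cftr alone, against 45%, 20.7% above and 24.3% below. Withdrawal and untreated arrays overlapped for every member as deposited, where 18% of probe sets did not, 7.65% higher and 10.3% lower. After quantile normalization Krt7 was lower on all withdrawal arrays, and Krt8 and Spp1 were higher, against 21.4% of probe sets, 9.75% higher and 11.6% lower.

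Cftr was the member that differed between groups on both scales. It encodes the chloride and bicarbonate channel of the apical membrane of duct cells, whose loss causes cystic fibrosis in people. Treated arrays read 6.68, 6.09 and 6.37. Withdrawal arrays read 7.01, 6.97 and 7.23, and untreated arrays 7.14, 7.04 and 6.94. The 3 treated arrays lay below all others, and the withdrawal and untreated arrays overlapped. The treated mean was 6.38 ± 0.30 (SD, n = 3), the withdrawal mean 7.07 ± 0.14 and the untreated mean 7.04 ± 0.10.

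Cftr was lower on treated than on untreated arrays by 0.66 on the log2 scale (difference −0.66 ± 0.16 SE, limma adjusted p = 0.0115), a signal 0.633 of that on untreated arrays. After quantile normalization the difference was −0.76 (adjusted p = 0.00487). Cftr rose from treated to withdrawal arrays by 0.69 ± 0.16 (adjusted p = 0.00507) and by 0.83 after quantile normalization (adjusted p = 0.00231). Between withdrawal and untreated arrays it differed by 0.03, with a 95% interval from −0.31 to 0.37 and adjusted p = 0.987. Both calls were made in each of 18 alternative fits, including the 9 that left out 1 array, with adjusted p from 0.000412 to 0.0474 for treated minus untreated and from 0.000167 to 0.0211 for withdrawal minus treated arrays. In bulk RNA of this kind, fewer cells that express Cftr and less Cftr RNA per cell cannot be told apart.

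**Figure D1:**
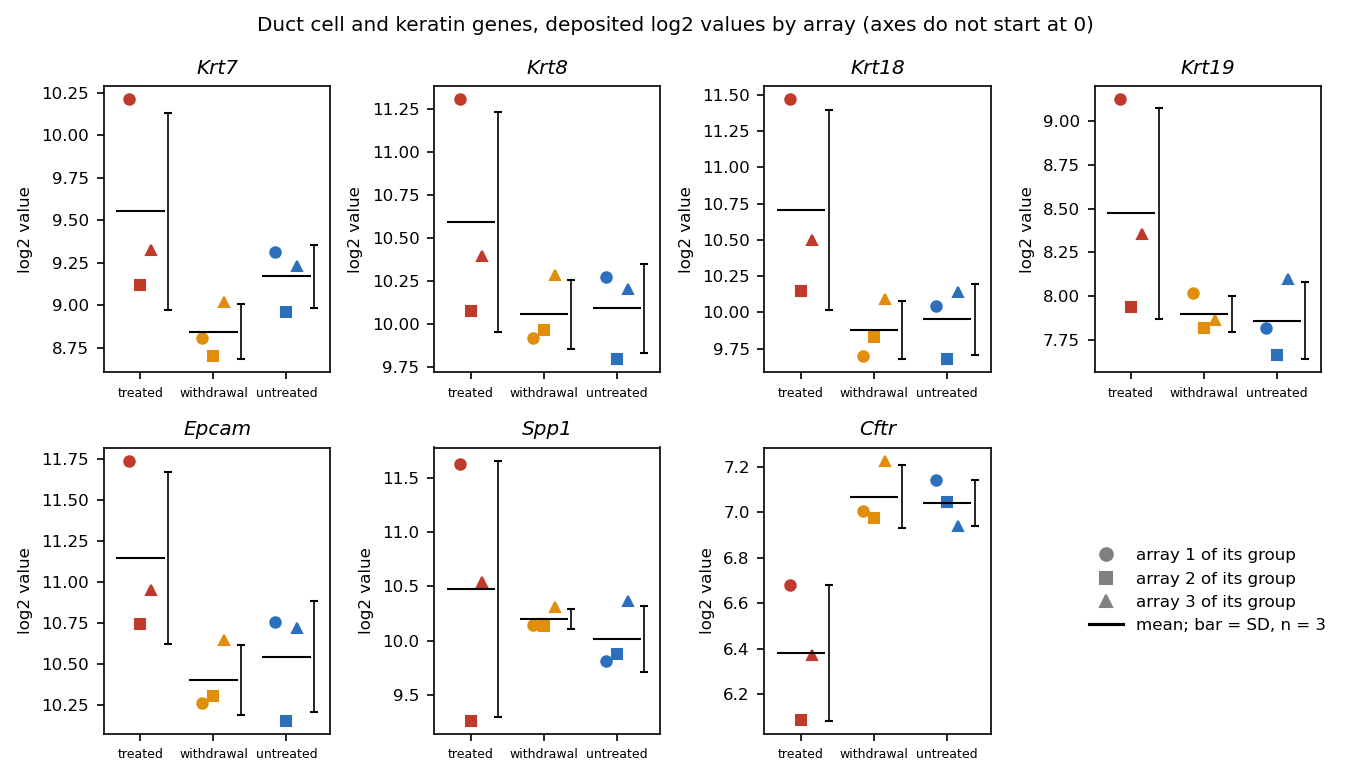
Deposited log2 values (vertical axes) of the 7 measured genes on each array, by group; circles, squares and triangles are arrays 1, 2 and 3 of a group, lines are means and bars are SD (n = 3). The first treated array is the highest treated array in every panel, and Cftr is the gene whose treated arrays all lie below the others.

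Other genes of duct secretion were looked at next, from a list that also held further duct markers. The ion and water transport genes were grouped out of that list after its values were seen, and 10 were tested. Slc4a4, the sodium bicarbonate cotransporter that loads duct cells with bicarbonate, was the 1 gene called lower on treated than on untreated arrays. None was called higher. Over all tested probe sets 20.9% were called higher and 7.24% lower. Slc4a4 read 6.75, 6.80 and 6.93 on treated, 7.04, 7.24 and 7.34 on withdrawal and 7.54, 7.48 and 7.29 on untreated arrays. As with Cftr, its 3 treated arrays lay below all others. Slc4a4 fell by 0.61 ± 0.13 on treated against untreated arrays (difference −0.61, adjusted p = 0.00741) and the difference was −0.76 after quantile normalization (adjusted p = 0.00464). From treated to withdrawal arrays it rose by 0.38 (adjusted p = 0.0307) and by 0.57 after quantile normalization (adjusted p = 0.00926). The first of these calls was made in all 18 alternative fits, and the second in 14.

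From treated to withdrawal arrays, 3 of the 10 transport genes rose and 1 fell, where 11.2% of all tested probe sets were called higher and 32.6% lower. After quantile normalization 2 rose and none fell, against 14.5% called higher and 14.6% lower. Besides Slc4a4, the potassium channel genes Kcne3 and Kcnn4 rose by 0.44 (adjusted p = 0.0333) and 0.40 (adjusted p = 0.0448), and after quantile normalization Kcne3 passed at 0.64 and Kcnn4 did not at 0.32. Kcnn4 was dim, with means of 4.90 on treated and 5.30 on withdrawal arrays, below the array medians of 5.74 to 5.81. Atp1b1, a subunit of the sodium pump, fell by 0.58 as deposited (difference −0.58, adjusted p = 0.0374), and the difference changed sign, to 0.22, after quantile normalization. Slc26a6, an apical chloride and bicarbonate exchanger, differed by 0.03 for treated minus untreated arrays and Slc12a2, the sodium, potassium and chloride cotransporter, by 0.24, neither past the threshold. The water channel gene Aqp1 differed by −0.15 and the carbonic anhydrase gene Car2 by −0.27, again short of the threshold. After quantile normalization Atp1b1 was called lower on treated than on untreated arrays too, at −0.60 (adjusted p = 0.00493). On that scale 9.44% of all tested probe sets were called lower. Aqp5, another water channel gene, and Ano1, a chloride channel gene, passed in no comparison.

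Sctr, the receptor for secretin, the hormone that drives duct secretion, had differences of the other sign. It was 0.58 higher on treated than on untreated arrays (adjusted p = 0.0270) and fell by 0.55 from treated to withdrawal arrays (difference −0.55, adjusted p = 0.0214). Neither passed after quantile normalization, at 0.28 and −0.17.

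**Figure D2:**
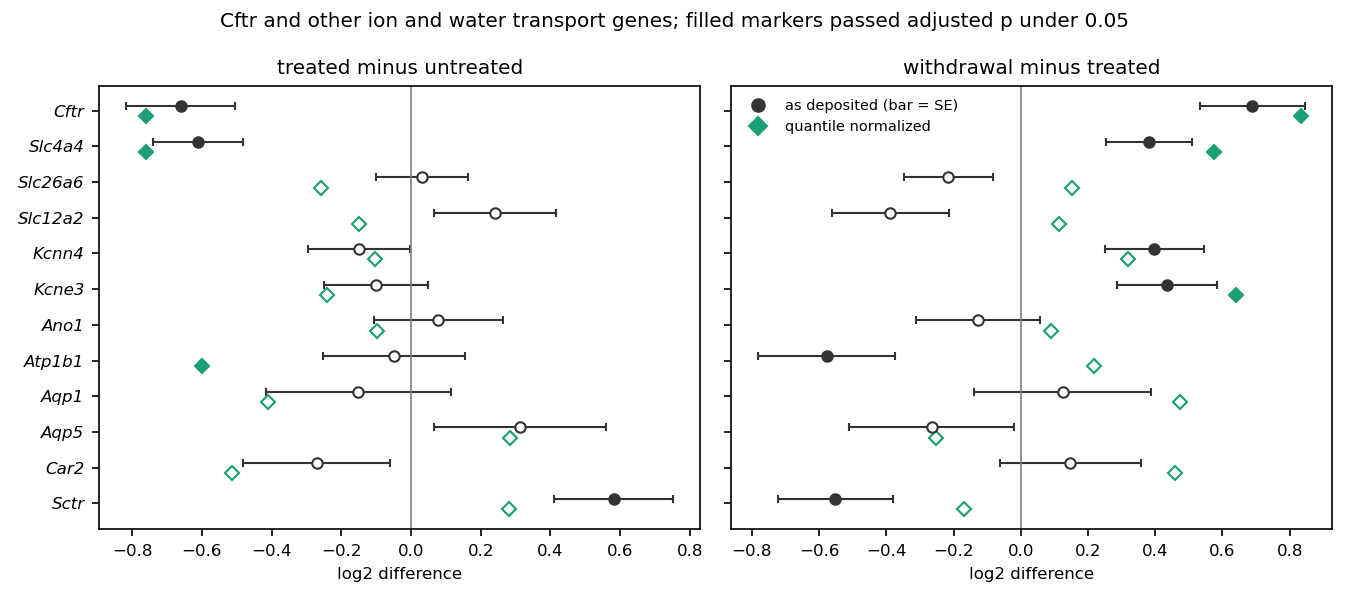
Log2 differences (horizontal axes) of Cftr, 10 transport genes and the secretin receptor gene Sctr for treated minus untreated and withdrawal minus treated arrays. Circles are deposited values with SE and diamonds are quantile normalized, filled where adjusted p was under 0.05; Cftr and Slc4a4 are negative in the first panel and positive in the second on both scales.

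Markers of other cell types were counted on the same arrays, and their calls differed between the scales. Between withdrawal and treated arrays, 2 of 15 tested macrophage markers and 1 of 14 stellate cell and matrix markers rose and none fell, where 11.2% of all tested probe sets were called higher, and after quantile normalization 9 and 10 rose and none fell, against 14.5%. Of 10 endothelial markers 2 fell as deposited, and 2 others rose after quantile normalization. In the same comparison 5 of 8 beta cell markers and 5 of 7 markers of other islet hormone cells fell, where 32.6% of all probe sets were called lower, and 3 and 4 fell after quantile normalization, against 14.6%. None of 17 acinar markers passed there on either scale. Their means lay near the highest values on the arrays, 14.17 to 14.36. Whether that limited their differences was not tested. Between treated and untreated arrays, 1 macrophage and 2 matrix markers fell, 4 beta cell, 3 other hormone cell and 2 acinar markers rose, and no endothelial marker passed, against 20.9% of all probe sets called higher and 7.24% lower. After quantile normalization 1 macrophage, 5 matrix and 3 endothelial markers fell, 0 beta cell and 3 other hormone cell markers rose, and 1 acinar marker rose and 1 fell, against 7.75% higher and 9.44% lower. The mean over 17 acinar markers ran from 13.1 to 13.4 on treated, 13.0 to 13.3 on withdrawal and 13.0 to 13.2 on untreated arrays. That over 14 matrix markers ran from 8.58 to 10.04 on treated, 9.48 to 9.70 on withdrawal and 9.00 to 9.46 on untreated arrays. That over 10 endothelial markers ran from 8.05 to 8.74, 7.81 to 8.07 and 7.995 to 8.42. The part of these cells in the Cftr and Slc4a4 differences was not tested.

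Krt8 and Krt18 encode the filament pair that simple epithelia make first. Krt8 read 11.31, 10.07 and 10.39 on treated, 9.92, 9.96 and 10.29 on withdrawal and 10.28, 9.79 and 10.20 on untreated arrays. Its groups overlapped in every comparison as deposited. Krt18 read 11.47, 10.14 and 10.50 on treated, 9.70, 9.83 and 10.10 on withdrawal and 10.05, 9.68 and 10.14 on untreated arrays. Its treated arrays lay above all others, the lowest of them only just over the highest untreated array.

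As deposited, Krt18 was 0.75 ± 0.27 higher on treated than on untreated arrays (adjusted p = 0.0579) and Krt8 0.50 ± 0.26 higher (adjusted p = 0.167), so neither passed. Krt18 fell from treated to withdrawal arrays by 0.83 ± 0.27 (difference −0.83, adjusted p = 0.0283), whereas for Krt8 the difference of −0.54 did not pass (adjusted p = 0.117). The median of probe sets of like brightness was −0.72 in that comparison. After quantile normalization Krt18 differed by 0.18 and −0.06 in these comparisons and Krt8 by −0.07 and 0.25, with no call and with the sign of both Krt8 differences turned. Withdrawal and untreated arrays differed by −0.08 for Krt18 (95% interval −0.67 to 0.52) and by −0.03 for Krt8 (−0.61 to 0.54).

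Krt7 is a type II keratin of ducts and glands, and Krt19 is the type I keratin used most often to mark pancreatic duct cells. Krt7 read 10.21, 9.12 and 9.33 on treated, 8.81, 8.71 and 9.02 on withdrawal and 9.31, 8.96 and 9.23 on untreated arrays. All 3 withdrawal arrays lay below the treated ones. Krt7 fell from treated to withdrawal arrays by 0.71 ± 0.24 (difference −0.71, adjusted p = 0.0291), near the −0.72 of probe sets of like brightness, and the difference was −0.04 after quantile normalization. It was 0.38 higher on treated than on untreated arrays as deposited (adjusted p = 0.233) and −0.15 after quantile normalization.

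Krt19 read 9.12, 7.94 and 8.35 on treated, 8.02, 7.82 and 7.86 on withdrawal and 7.82, 7.66 and 8.10 on untreated arrays. The groups overlapped. Its difference was 0.61 ± 0.24 for treated minus untreated (adjusted p = 0.0750) and −0.57 for withdrawal minus treated arrays (adjusted p = 0.0720), and 0.25 and −0.11 after quantile normalization. Krt19 and Krt18 kept the sign of both differences after quantile normalization, and Krt7 and Krt8 did not.

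Epcam encodes an adhesion molecule of epithelial cells. It read 11.74, 10.75 and 10.95 on treated, 10.26, 10.30 and 10.65 on withdrawal and 10.76, 10.15 and 10.72 on untreated arrays. Treated arrays lay above the withdrawal ones and overlapped the untreated ones. Epcam fell from treated to withdrawal arrays by 0.74 ± 0.24 (difference −0.74, adjusted p = 0.0280), and after quantile normalization the difference was 0.02, with an interval from −0.30 to 0.34. For treated minus untreated arrays the deposited values gave 0.60 (adjusted p = 0.0833) and the quantile normalized ones 0.04.

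**Figure D3:**
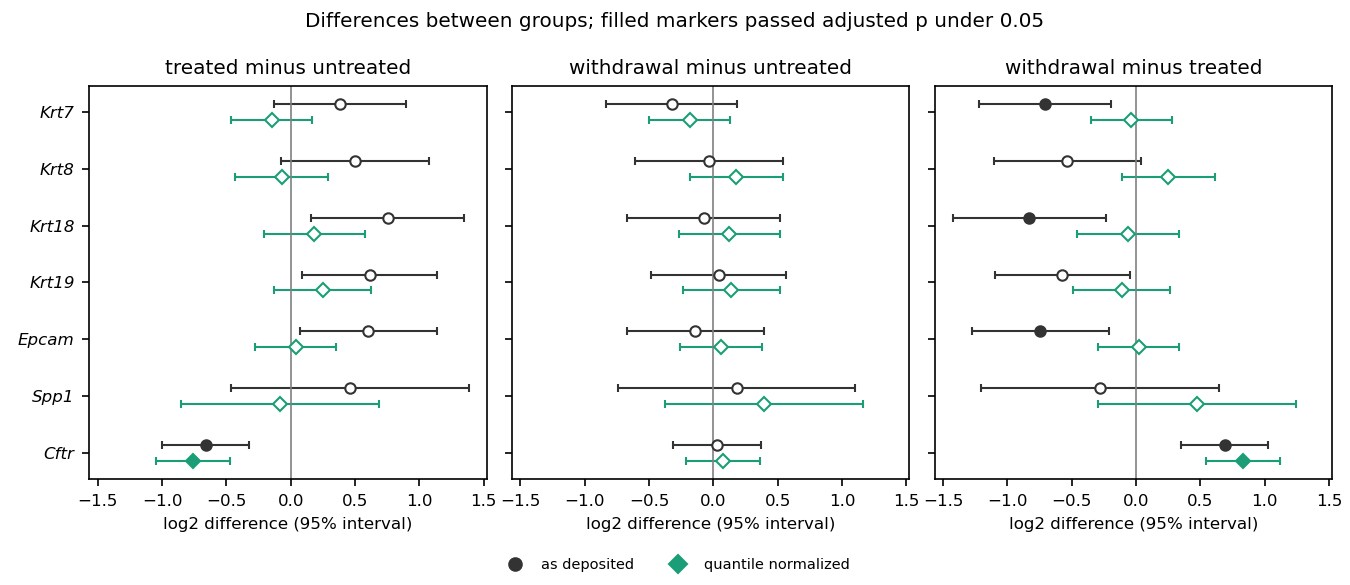
Log2 differences (horizontal axes) of the 7 genes in the 3 comparisons, with 95% intervals from limma; circles are deposited and diamonds quantile normalized values, filled where adjusted p was under 0.05. Cftr is filled on both scales in the comparisons with treated arrays, and Krt7, Krt18 and Epcam only as deposited for withdrawal minus treated.

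**Figure D4:**
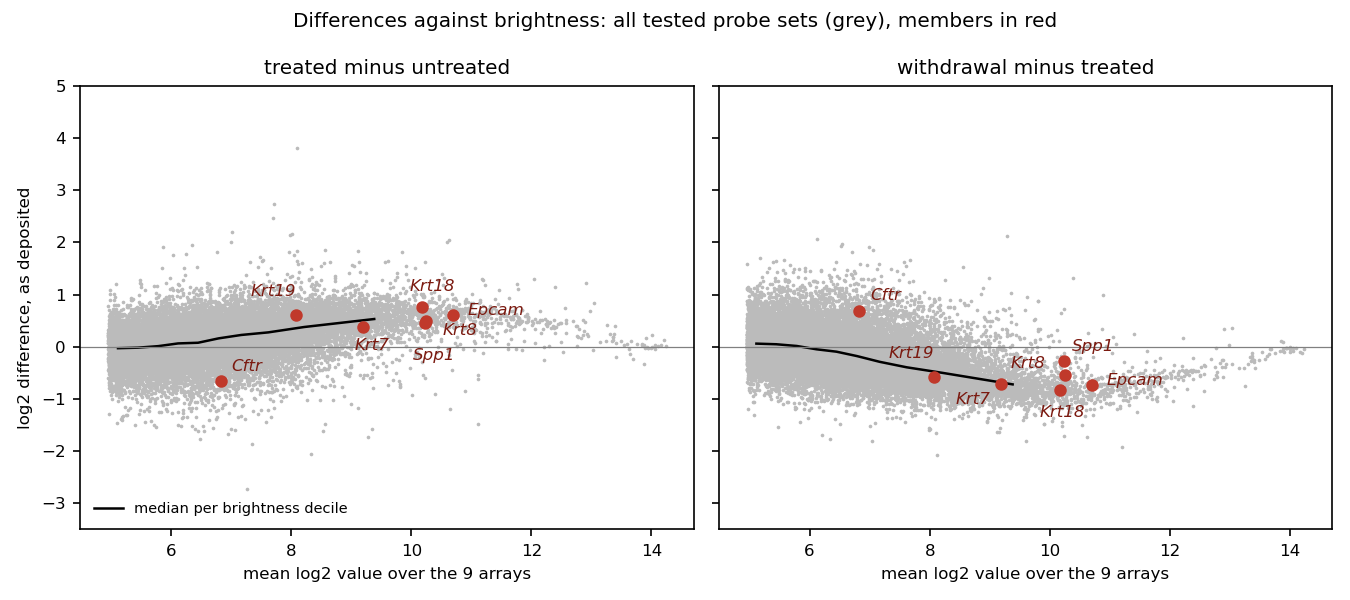
Log2 difference as deposited (vertical axes) against the mean log2 value over the 9 arrays (horizontal axes) for all 20695 tested probe sets (grey), with the median of each brightness decile as a line and the 7 genes in red. Krt7, Krt8, Krt18, Krt19 and Epcam follow the shift of the bright probe sets, and Cftr lies below the line in the first panel and above it in the second.

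Single arrays mattered for the bright genes. For all 7 genes, and on both scales, the first treated array was the highest and the second the lowest of the treated arrays, an order found in 27.1% of the tested probe sets as deposited and 21.5% after quantile normalization. The first treated array exceeded the mean of the other treated arrays by 0.90 to 1.15 for the keratins and Epcam, by 1.73 for Spp1 and by 0.45 for Cftr, where the median was 0.40 over the brightest decile, 0.29 over that of Krt19 and 0.15 over that of Cftr. After quantile normalization it exceeded them by 0.30 for Cftr, 0.52 to 0.72 for the keratins and Epcam and 1.30 for Spp1, and the median over all tested probe sets was −0.03. Without the second treated array, 5 of the genes were called higher and 1 lower on treated than on untreated arrays, and 6 fell and 1 rose from treated to withdrawal arrays. All tested probe sets in that fit were called higher in 22.5% and lower in 7.81% of cases in the first comparison, and in 11.6% and 32.8% in the second. Without the first treated array, the withdrawal minus treated differences that were called shrank to −0.38 for Krt7, −0.45 for Krt18 and −0.45 for Epcam, each still called. Without either the first or the second withdrawal array, Cftr was the 1 gene called between withdrawal and treated arrays, where 6.42% to 7.19% of all probe sets were called higher and 20.6% to 22.7% lower. With the first treated array left out and the others quantile normalized, a choice made after the data were seen, Krt7 and Cftr were called lower on treated than on untreated arrays, as were 11.6% of all probe sets. In that fit the withdrawal minus treated differences of Krt8 and Spp1 were called too, at 0.46 (adjusted p = 0.0112) and 0.90 (adjusted p = 0.0191), beside Cftr, where 16.5% of all probe sets were called higher.

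Spp1 encodes osteopontin, a secreted phosphoprotein made by duct cells and by activated macrophages, and of the 7 it varied most among treated arrays. It read 11.63, 9.26 and 10.54 on treated, 10.15, 10.14 and 10.31 on withdrawal and 9.81, 9.87 and 10.36 on untreated arrays. The treated arrays spanned all the others. Their SD was 1.19, against 0.09 on withdrawal arrays, the lowest of the 7 there, and 0.30 on untreated arrays, where that of Epcam was higher at 0.34. No comparison passed, with differences of 0.46 ± 0.42 for treated minus untreated (adjusted p = 0.427), 0.18 for withdrawal minus untreated (adjusted p = 0.960) and −0.28 for withdrawal minus treated arrays (adjusted p = 0.615). The intervals ran from −0.46 to 1.38, −0.74 to 1.10 and −1.20 to 0.64. A doubling in the first and second comparisons lies within them, as does a fall of that size on the log2 scale in the third.

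The mean over 17 macrophage markers was 8.32, 6.77 and 7.51 on treated arrays 1, 2 and 3, the same order as Spp1. That order was not particular to macrophages. The mean over 14 matrix markers had it too, at 10.04, 8.58 and 9.34, as did 27.1% of tested probe sets as deposited. The macrophage mean ran from 7.88 to 8.08 on withdrawal and from 7.37 to 7.54 on untreated arrays. After quantile normalization Spp1 read 10.92, 9.02 and 10.22 on treated arrays, 10.54, 10.56 and 10.48 on withdrawal and 9.84, 10.24 and 10.32 on untreated arrays, and its withdrawal arrays then lay above all untreated ones. The part of macrophages in Spp1 levels was not tested. Among 10 tested receptors and partners of osteopontin, Cd44, a receptor for it, rose by 0.56 from treated to withdrawal arrays (adjusted p = 0.0110) and by 0.85 after quantile normalization (adjusted p = 0.00164). Cd44 read 7.44, 6.88 and 7.14 on treated and 7.79, 7.75 and 7.60 on withdrawal arrays, without overlap. No other gene of that list passed in any comparison as deposited, where 11.2% of all tested probe sets were called higher from treated to withdrawal arrays. After quantile normalization 4 of the 10 rose from treated to withdrawal arrays, against 14.5% of all tested probe sets. They were Cd44, the integrin gene Itga8 at 0.47 and the matrix protease genes Mmp2 at 1.005 and Mmp12 at 1.14. On that scale 10 of 14 matrix and 9 of 15 macrophage markers rose too. Mmp2 was lower on treated than on untreated arrays, at −1.17 (adjusted p = 0.00866), where 9.44% of all tested probe sets were called lower.

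**Figure D5:**
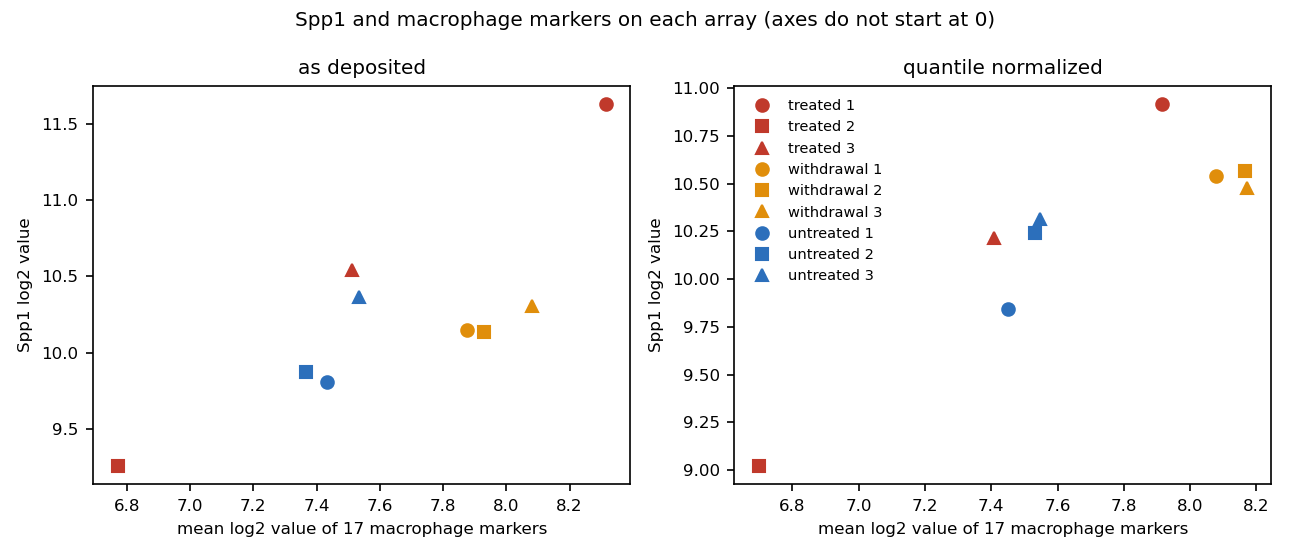
Spp1 log2 value (vertical axes) against the mean log2 value of 17 macrophage markers (horizontal axes) on each of the 9 arrays, as deposited and after quantile normalization; colours are groups and shapes are arrays. The treated arrays hold both the highest and the lowest Spp1 values, on the arrays with the highest and lowest treated marker means.

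Further duct markers gave mixed directions. Of 28 tested genes in that list, 5 rose and 2 fell on treated against untreated arrays. Over all tested probe sets 20.9% were called higher and 7.24% lower. The median of the 28 was 0.20 where all tested probe sets had 0.16. After quantile normalization none rose and 3 fell, against 7.75% called higher and 9.44% lower. The stem and duct cell surface gene Prom1 rose by 0.53 (adjusted p = 0.0234) and the epithelial transcription factor gene Elf3 by 0.52 (adjusted p = 0.0248), neither past the threshold after quantile normalization. Clu, Cd24 and Sctr were the others that rose. Ambp, which encodes a precursor of a plasma proteinase inhibitor, was the other gene called lower beside Slc4a4, with a difference of −2.73. It was the 1 gene of this list called between withdrawal and untreated arrays, with a difference of −2.17. There 0.159% of all tested probe sets were called. From treated to withdrawal arrays 4 rose and 4 fell, against 11.2% of all tested probe sets called higher and 32.6% lower. After quantile normalization 3 rose, Slc4a4, Ambp and Kcne3, and none fell, against 14.5% and 14.6%.

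Keratins of other epithelia were dim. The mean over 19 of them was 5.30 to 5.47 on all arrays, below the array medians of 5.74 to 5.81, and 13 were bright enough to be tested. Krt14, a keratin of basal epithelial cells, rose by 0.61 on treated against untreated arrays (adjusted p = 0.0218) and by 0.60 after quantile normalization (adjusted p = 0.0271). Krt24 fell by 0.44 (difference −0.44, adjusted p = 0.0250) and rose by 0.36 from treated to withdrawal arrays (adjusted p = 0.0359), the second not past the threshold after quantile normalization, where Krt71 was called instead, at 0.47. Of the 13, 1 rose and 1 fell on treated against untreated arrays on each scale. All tested probe sets were called higher in 20.9% and lower in 7.24% of cases as deposited, and in 7.75% and 9.44% after quantile normalization. From treated to withdrawal arrays 1 rose and none fell on each scale, against 11.2% and 32.6% as deposited and 14.5% and 14.6% after quantile normalization. The call on Krt14 was made in 7 and the first call on Krt24 in 5 of the 9 fits that left out 1 array. Both had mean values of 4.83 to 6.19, near or below the array medians.

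Proteins that anchor keratins or hold epithelial cells together were tested next. Of 21 tested filament and desmosome genes, 3 rose and none fell on treated against untreated arrays, Dsc2, a desmosomal cadherin, by 0.71, Dst, a cytoskeletal linker, by 0.54 and Lmna, the lamin A gene, by 0.83. None of these 3 passed after quantile normalization, where none rose and 1 gene, Fam83h, fell, at −0.39. Over all tested probe sets, 20.9% were called higher and 7.24% lower as deposited, and 7.75% and 9.44% after quantile normalization. From treated to withdrawal arrays 5 fell and none rose, among them Dsc2 by 0.82 (difference −0.82) and Dst by 0.68 (difference −0.68), and both held their calls on the quantile normalized scale, at −0.58 and −0.33. On that scale 2 others rose, Jup, the plakoglobin gene, at 0.50 (adjusted p = 0.0155) and Plec, the plectin gene, at 0.41 (adjusted p = 0.0215). In this comparison 11.2% of all tested probe sets were called higher and 32.6% lower as deposited, and 14.5% and 14.6% after quantile normalization. Of 22 tested genes of epithelial junctions, 6 rose and none fell on treated against untreated arrays, with a median of 0.35, and 1 rose and 9 fell from treated to withdrawal arrays, with a median of −0.34. After quantile normalization 1 rose and 1 fell in the first comparison, and 3 rose and 2 fell in the second. The junction counts stand beside the same shares of all tested probe sets. As deposited these were 20.9% higher in the first comparison and 32.6% lower in the second.

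Among the junction genes, Tjp3, a tight junction scaffold gene, rose by 0.60 on treated against untreated arrays and passed on both scales (0.63 and adjusted p = 0.0137 after quantile normalization). Cgn, which encodes the tight junction protein cingulin, fell by 0.55 from treated to withdrawal arrays (difference −0.55, adjusted p = 0.00426) and by 0.56 after quantile normalization (difference −0.56, adjusted p = 0.00330). Tjp1, Spint1 and Spint2 fell by 0.65, 0.65 and 0.80 in the same comparison as deposited and did not pass after quantile normalization, at −0.04, −0.26 and −0.03. Between withdrawal and untreated arrays no junction gene was called as deposited, where 0.159% of all tested probe sets were. After quantile normalization Spint1 was the 1 junction gene called there, at −0.59 (adjusted p = 0.0414). On that scale 0.387% of all tested probe sets were called lower in that comparison. The 3 junction genes called higher on withdrawal than on treated arrays after quantile normalization were Ctnnd1, the p120 catenin gene, at 0.51, F11r, a tight junction adhesion molecule gene, at 0.41 and St14, which encodes the membrane protease matriptase, at 0.65. The medians of the junction list after quantile normalization were 0.02 and 0.09.

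Regulators of duct and endodermal identity were tested with the list built around Sox9 and the YAP pathway. Of 18 tested, Foxa2 and Hnf4a, transcription factors of endodermal epithelia including islet cells, rose by 0.74 (adjusted p = 0.00447) and 0.59 (adjusted p = 0.00721) on treated against untreated arrays, and none fell. From treated to withdrawal arrays Foxa2 fell, from a mean of 9.20 to one of 8.20 (adjusted p = 0.000797), and Hnf4a by 0.48 (difference −0.48, adjusted p = 0.00963), and Tead2, a DNA-binding partner of YAP, rose by 0.51 (adjusted p = 0.0311). Of the 9 fits that left out 1 array, the call in this comparison was made in 9 for Foxa2, 8 for Hnf4a and 4 for Tead2. After quantile normalization Foxa2 passed in the second comparison, at −0.45, Hnf4a in the first, at 0.39, and Tead2 at 0.96 (adjusted p = 0.00163). On that scale Hey1, a target gene of Notch signalling, was called in both, at −0.50 (adjusted p = 0.0337) for treated minus untreated and 0.51 (adjusted p = 0.0210) for withdrawal minus treated arrays, with −0.25 and 0.16 and no call as deposited. None of the 18 was called between withdrawal and untreated arrays, where 0.159% of all tested probe sets were called as deposited. For treated minus untreated arrays 20.9% were called higher and 7.24% lower, and for withdrawal minus treated arrays 11.2% and 32.6%. After quantile normalization these shares were 7.75% and 9.44%, and 14.5% and 14.6%.

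The genes most like each member were those whose brightest tested probe set had the highest Pearson correlation with it over the 9 arrays after quantile normalization, out of 11618 genes compared. The arrays fall into groups and share their array-wide scaling, so these are descriptions. For Cftr they were Peli2 (r = 0.984), Pcdh19 (0.9749) and Steap1 (0.972). For Krt8 they were Rab8b (0.982), Tgfbr1 (0.981) and Ggt5 (0.9748), and for Krt18 they were Plaur (0.958), Nras (0.953) and Spidr (0.949). For Krt7 they were Map3k20 (0.968), Fes (0.965) and Coro1c (0.962), and for Krt19 they were Gstcd (0.950), Ptpn6 (0.946) and Tspan31 (0.946). For Epcam they were Lamb3 (0.972), Bnip2 (0.971) and Eci3 (0.968), and for Spp1 they were Runx1 (0.980), S100a4 (0.972) and Ppic (0.970). No member was among the 3 genes most like another member.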

How the data were processed

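RNA from isolated islets was labelled and hybridised to 1 array per sample, 9 in all. The authors deposited log2 values per probe set. Their scale was read from the values, which were all positive and had no zeros. RMA and MAS5 are named per the submitters' processing notes, and their roles and versions are not given in the sources used here. Of 31099 probe sets, 57 controls were left out. The other 31042 comprised 20826 with a single symbol, 436 with more than 1, left unnamed, and 9780 without a symbol here. The RefSeq table of GRCr8 gave the current symbol, for 20758 probe sets by gene number and for 2 by accession, and 66 stayed as annotated.

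The lowest 33.3% of probe sets by mean log2 were left out, and 20695 were tested by linear models with moderated variances (limma 3.58.1, functions lmFit and eBayes, under R 4.3.3), fitting the 3 group means on the 9 arrays together. The threshold was a Benjamini-Hochberg adjusted p under 0.05 over all tested probe sets. A gene in a list was represented by its brightest probe set. The fit was tested on simulated data that did not include the unequal spread of these arrays. Figures used Python 3.11.15 and matplotlib 3.10.9.

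The members and lists were chosen with earlier results of these data known. Named genes were all members, up to 4 called genes of each list per comparison by smallest p and those needed to describe a count, and the 3 genes most like each member. The transport genes were grouped out of the duct list after its values were seen. Replicate numbers were not used to pair the arrays in the reported fit. Correlations of deviations from group means between same-numbered arrays ran from −0.28 to 0.50. Arrays with different numbers were not correlated for reference, so whether the numbers pair the arrays was not settled. Alternatives were other scalings, filters, variance settings, array weights, subsets of arrays and the replicate number as a block. The number of arrays limits the precision.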

Additional observations from a re-analysis of the deposited data

How the results depend on the processing

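The calls on Cftr against treated arrays held under each of the 18 alternatives run. The small difference of Cftr between withdrawal and untreated arrays turned to −0.0076 with array weights, as did that of Krt19 to −0.019. For the bright members the direction depended on the scaling. After quantile normalization the treated minus untreated differences of Krt7, Krt8 and Spp1 turned to −0.15, −0.070 and −0.082. Those for withdrawal minus treated arrays turned to 0.25 for Krt8, 0.48 for Spp1 and 0.021 for Epcam, and those for withdrawal minus untreated arrays to 0.18 for Krt8, 0.12 for Krt18 and 0.059 for Epcam. Leaving treated array 1 out before quantile normalization, added after the data were seen, gave −0.32 for Krt7, −0.28 for Krt8, −0.057 for Krt18, −0.14 for Epcam and −0.51 for Spp1 for treated minus untreated arrays. For withdrawal minus treated it gave 0.14 for Krt7, 0.46 for Krt8, 0.18 for Krt18, 0.075 for Krt19, 0.20 for Epcam, 0.90 for Spp1, 0.038 for Prom1 and 0.059 for Lmna, and for withdrawal minus untreated 0.18 for Krt8, 0.12 for Krt18 and 0.060 for Epcam. The cause was not tested. Members called between treated and untreated arrays numbered 1 in the reported fit, 3 with array weights, 4 with the replicate block and 2 with that added setting. Of all tested probe sets, 20.9% were called higher and 7.24% lower in the reported fit. Those shares were 22.5% and 12.1% with array weights, 23% and 7.97% with the replicate block and 10.5% and 11.6% with the added setting. Between withdrawal and treated arrays the members called numbered 4, against 1 after quantile normalization. They numbered 2 when the fit held just the 6 arrays being compared, which has fewer samples. In that order, all tested probe sets were called higher in 11.2%, 14.5% and 9.13% of cases and lower in 32.6%, 14.6% and 28.2%. Between withdrawal and untreated arrays the members called numbered 0, against 1, Krt7, with array weights. In that fit 3.73% of all tested probe sets were called higher and 12.1% lower. Over all probe sets the counts were 5817, 33 and 9057 for treated minus untreated, withdrawal minus untreated and withdrawal minus treated. After quantile normalization they were 3558, 87 and 6032, with 45.1% of the first called higher against 74.2%, and 49.9% of the third against 25.5%. Fits of the 6 arrays compared gave 3209 for the first and 494 for the second. The second was 3275 with array weights, 50 with the replicate block and 409 with the added setting. The replicate block moved no other count by over 1.5 times. With each array left out in turn, members called ranged from 1 to 6, 0 to 0 and 1 to 7 in that order, and all probe sets called from 2033 to 6319, 7 to 398 and 5587 to 9511. In those fits the differences ranged, for withdrawal minus untreated arrays, from −0.051 to 0.078 for Cftr, −0.22 to 0.016 for Krt18, −0.058 to 0.16 for Krt19 and −0.18 to 0.058 for Krt8. For Spp1 they ranged from −0.12 to 1.07 for treated minus untreated and from −0.89 to 0.30 for withdrawal minus treated arrays. Treated minus untreated differences ranged from 0.053 to 0.60 for Krt7, 0.14 to 0.76 for Krt8, 0.37 to 1.03 for Krt18, 0.29 to 0.88 for Krt19 and 0.30 to 0.80 for Epcam. Those for withdrawal minus treated ranged from −0.92 to −0.38, −0.80 to −0.18, −1.11 to −0.45, −0.84 to −0.25 and −0.94 to −0.45 in the same order, and the smallest sizes were those without treated array 1.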
